A study of Rattus norvegicus with 12 samples.

Results

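The proteasome genes of the rat brain were followed after transient focal ischemia. Members were the probe sets that the array annotation assigned to exactly 1 gene with a Psma, Psmb, Psmc, Psmd, Psme, Psmf or Psmg symbol and a number. This gave 60 of the 31099 probe sets on the array, for 46 of the 14217 genes with a probe set of their own. Psmc3ip and Psme3ip1 matched by name only, since they encode proteins named for binding a proteasome component, and were kept apart, which left 44 genes of subunits, activators, an inhibitor and assembly chaperones. A further 6 probe sets carried such a symbol beside other genes and were not analysed here, so Psmb6 and Psme3 had no probe set of their own.

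Messenger RNA was measured with 1 array per rat in 12 male rats aged 8 weeks, of the outbred Sprague-Dawley stock, from the left hemisphere of the brain. In 7 rats the middle cerebral artery was occluded and the vessel then reperfused (MCAO, a surgical stroke model). The other 5 rats had a Sham operation, and all tissue was taken 24 h after reperfusion. The labels do not say which side was occluded, and a whole hemisphere pools injured with less affected tissue. Values are on a log2 scale, on which 1 unit is a doubling, and array medians lay between 7.23 and 7.27. The table has no read depth, and the number of arrays limits the precision.

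The proteasome degrades proteins tagged with ubiquitin. Its core particle is a barrel of alpha (Psma) rings around beta (Psmb) rings, and the beta subunits Psmb5, Psmb6 and Psmb7 carry the proteolytic sites. Interferon-induced Psmb8, Psmb9 and Psmb10 can take the places of Psmb5, Psmb6 and Psmb7 in the immunoproteasome, which yields peptides suited to presentation on MHC class I molecules. The regulatory particle caps the barrel with a base of ATPases (Psmc), which unfold the substrate, and a lid (mostly Psmd), which removes ubiquitin, while Psme proteins form alternative caps.

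Most proteasome genes were higher in MCAO than in Sham, by modest folds. Of the 44 genes, 36 varied between arrays, and 30 of these were higher at an adjusted p under 0.05 (limma over all 12153 tested genes, Benjamini-Hochberg adjustment), 0 were lower and 6 did not pass. The 30 changes ran from 0.18 to 0.88 log2 units (1.14- to 1.84-fold), and 3 genes rose at least 1.5-fold: Psmb9, Psme1 and Psme2. The injury changed a large part of the transcriptome, and 35.2% of the 6339 varying genes were called higher and 34.2% lower. Against that background, 83.3% of the varying proteasome genes were called higher. Counted over all tested genes, near-constant ones included, 22.2% were called higher and 22.1% lower, against 30 and 0 of the 44 proteasome genes. The median change of the 36 genes was 0.30, against 0.03 for all varying genes, and 35 of the 36 had a positive sign. In 17 of the 36 every MCAO rat lay above every Sham rat, which was the case for 17.9% of all varying genes. Without MCAO 2 that count was 24 of 36, against 27.3% of all varying genes. In whole tissue, more cells of a type and more RNA per cell cannot be told apart, and this holds for every change below.

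**Figure D1:**
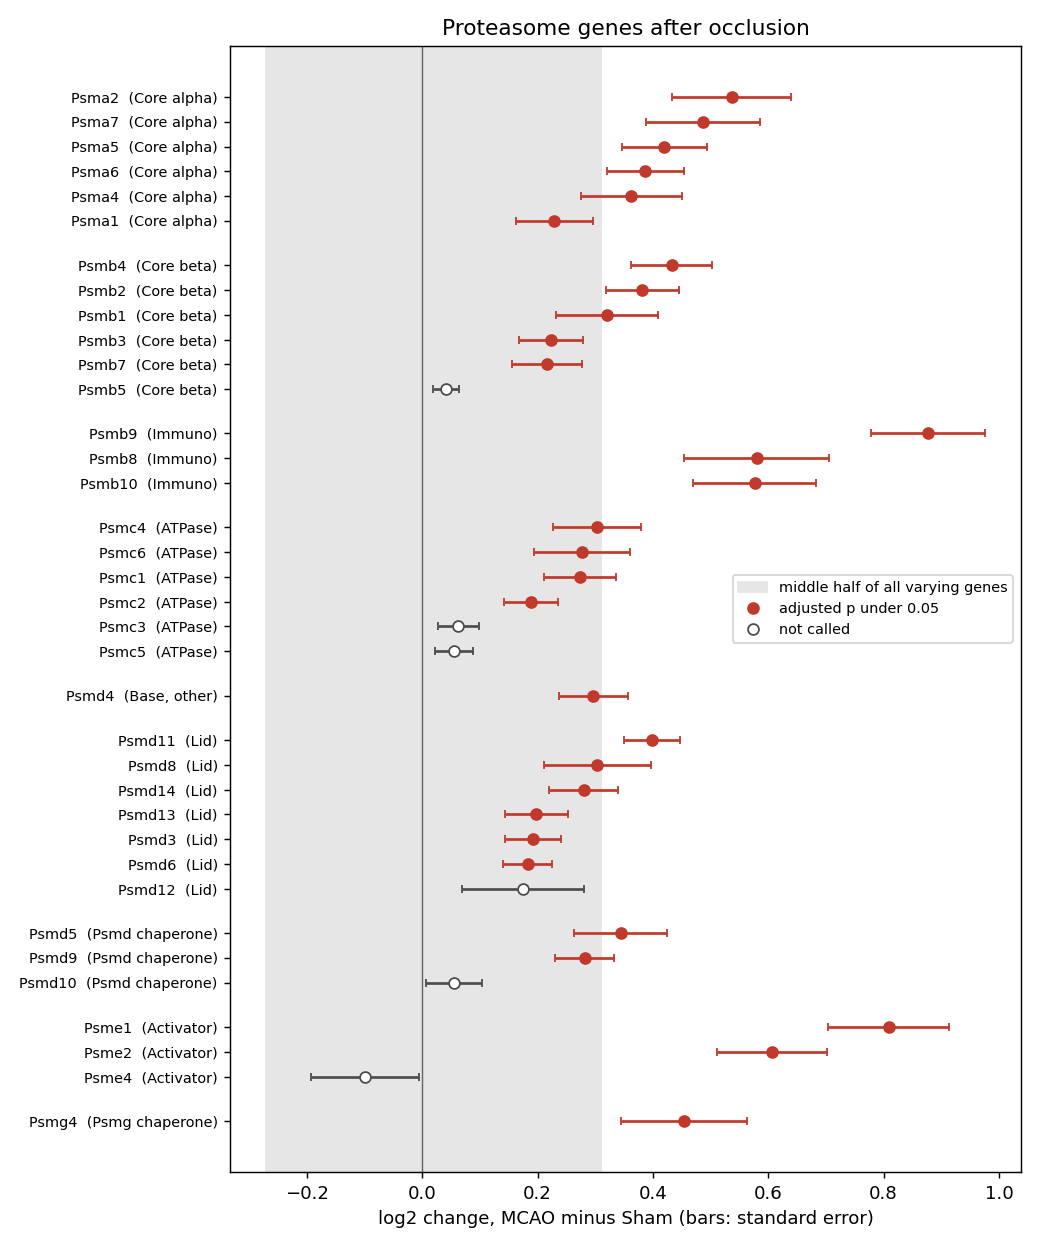
Log2 change (MCAO minus Sham) with its standard error for the 36 varying proteasome genes, grouped by class, with filled points for an adjusted p under 0.05. The grey band spans the middle 50% of changes over all varying genes (-0.27 to 0.31), and only Psme4 lies below 0.

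The other 8 genes (Psma3, Psmd1, Psmd2, Psmd7, Psmf1, Psmg1, Psmg2 and Psmg3) had a representative probe set that was near-constant in the deposited table, with an SD over the 12 arrays under 0.01. Such values made up 62.5% of the table. Their signals were not low, with Sham means between 8.60 and 10.35, and none was called. Varying was judged over both groups together, and a gene that differs between them varies for that reason too, so counts over varying genes are not counts over all members. All 46 genes lay above the detection filter in all 12 arrays, so no member was included through 1 group alone.

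The immunoproteasome subunits gave the largest rise of the catalytic genes, and all 3 were called. Psmb9, which replaces Psmb6, read 6.98, 6.90, 6.97, 7.01 and 7.15 in the 5 Sham rats, and ran from 7.58 (MCAO 2) over a median of 7.88 to 8.21 (MCAO 6) in the 7 MCAO rats. The groups were fully separated, with 0.43 log2 units between the highest Sham rat and the lowest MCAO rat. The change was 0.88 ± 0.10 (SE), 1.84-fold, with a limma adjusted p of 0.000487. Psmb8, which replaces Psmb5, read 6.68, 6.74, 6.81, 6.80 and 7.01 in Sham, and in MCAO its lowest, median and highest values were 7.16, 7.35 and 7.89. The groups did not overlap, and MCAO 3 stood above the rest. The change was 0.58 ± 0.13, with an adjusted p of 0.00521. Psmb10, which replaces Psmb7, read 7.94, 7.81, 8.00, 7.85 and 8.13 in Sham and from 8.13 over 8.55 to 8.86 in MCAO. Only MCAO 2 reached into the Sham range, just under Sham 5. Its change was 0.58 ± 0.11 (adjusted p = 0.0028). In every Sham rat, Psmb8 and Psmb9 lay below the lowest array median of 7.23. Psmb8 was there close to the detection filter of 6.61.

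Psmb5 and Psmb7, which Psmb8 and Psmb10 replace, changed less than these, and Psmb6 had no probe set of its own. Psmb5, which carries the chymotrypsin-like site, read 11.00, 10.96, 10.98, 10.99 and 11.02 in Sham and from 10.95 over 11.02 to 11.08 in MCAO. The groups overlapped, and its change of 0.04 ± 0.02 did not pass (adjusted p = 0.173). Psmb7, which carries the trypsin-like site, read 9.85, 9.68, 9.90, 9.77 and 9.96 in Sham and from 9.86 over 10.06 to 10.14 in MCAO. It rose by 0.22 ± 0.06 (adjusted p = 0.015), with 6 of 7 MCAO rats above all Sham rats.

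The difference between partners was tested within each rat, as the log2 signal of the inducible subunit minus that of the subunit it replaces. These are signals of different probe sets, so only their change between groups can be read. Psmb8 minus Psmb5 was -4.18 ± 0.11 (SD, n = 5) in Sham and -3.64 ± 0.27 (SD, n = 7) in MCAO. The difference of 0.54 gave an exact two-sided permutation p of 0.00253 over the 792 splits of the rats, and the groups did not overlap (7 of 7 MCAO rats above all Sham rats). Psmb10 minus Psmb7 was -1.89 ± 0.04 in Sham and -1.53 ± 0.15 in MCAO, a difference of 0.36. Its exact p of 0.00126 is the smallest this design can give, and again 7 of 7 MCAO rats exceeded every Sham rat. Adjusted over the 2 pairs, both p-values were 0.00253. The pair of Psmb9 and Psmb6 could not be tested, since Psmb6 had no probe set of its own. Psmb5 had an unusually small spread in the deposited table. Its SD over the 12 arrays was 0.04, and together with Psmc3 and Psmc5 it was 1 of 3 members between 0.01 and 0.07, a range that held 490 probe sets of the whole table against 11212 above it. Whether the authors' processing set this spread was not tested, and the first pair rests on Psmb8 nearly alone.

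**Figure D2:**
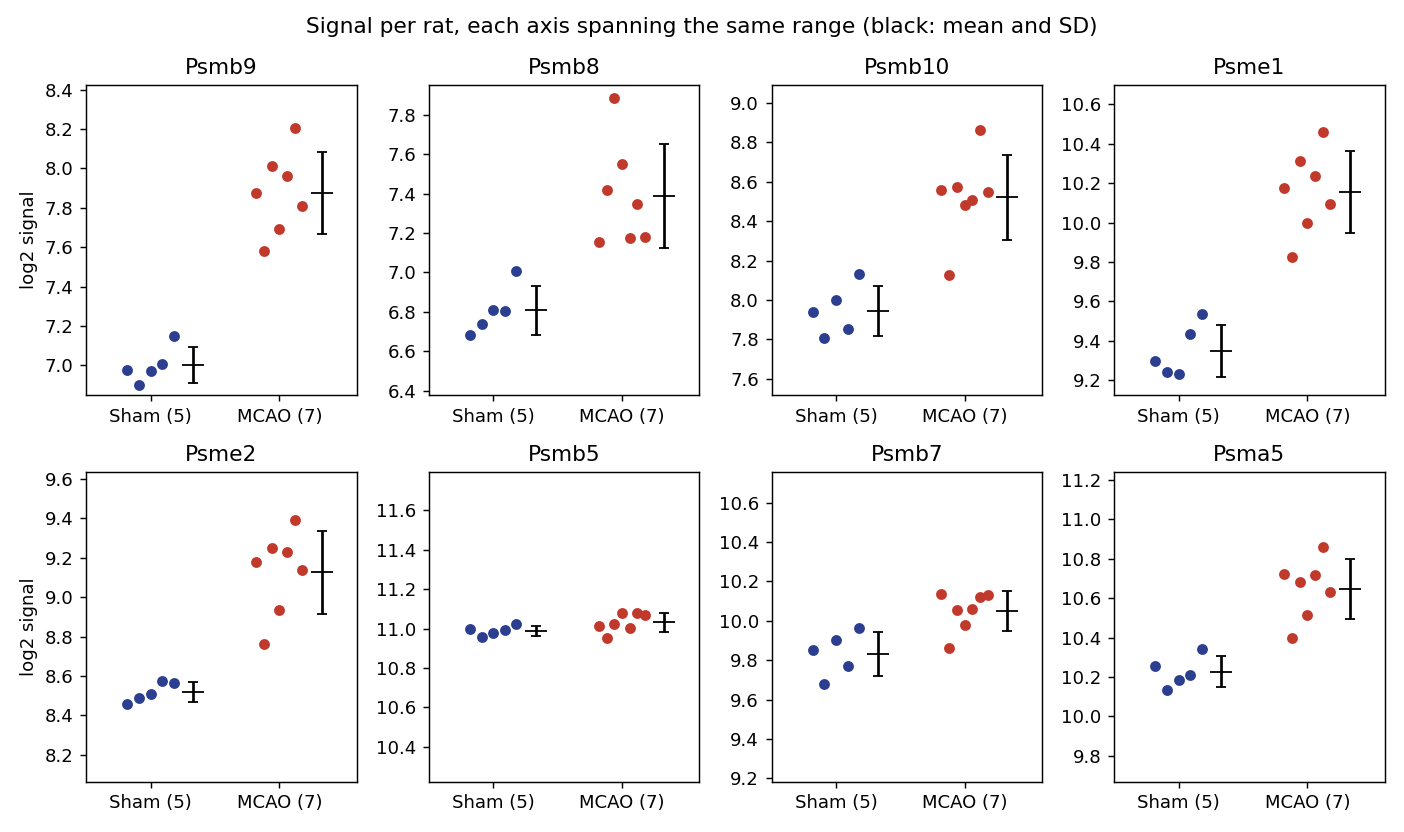
Log2 signal of 8 proteasome genes in each Sham rat (blue, 5) and each MCAO rat (red, 7), with the group mean and SD in black; every panel spans the same log2 range. Psmb9, Psmb8, Psme1, Psme2 and Psma5 show no overlap, Psmb10 and Psmb7 overlap through MCAO 2 alone, and Psmb5 stays between 10.95 and 11.08.

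The interferon-inducible cap also rose. Psme1 and Psme2 encode the alpha and beta subunits of the 11S (PA28) activator, a ring that opens the core without ATP. Psme1 read 9.29, 9.24, 9.23, 9.43 and 9.54 in Sham and from 9.82 over 10.17 to 10.46 in MCAO. Psme2 read 8.46, 8.49, 8.51, 8.58 and 8.57 in Sham and from 8.76 over 9.18 to 9.39 in MCAO. Neither gene showed any overlap between groups, and for both MCAO 2 was the lowest and MCAO 6 the highest of the operated rats. The change was 0.81 ± 0.10 for Psme1 (1.75-fold, adjusted p = 0.000948) and 0.61 ± 0.10 for Psme2 (1.52-fold, adjusted p = 0.00163).

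Promoters of these genes are printed because the inducible members rose together, next to that of Psmb5 as the partner that did not pass. Each runs from 250 bases before to 50 bases after the annotated start, 5′ to 3′ on the gene's strand, from RefSeq on GRCr8. Capitals mark matches on either strand to the interferon response element (GAAA, any 2 bases, GAAA) or to TGACNNNGC, the core of the antioxidant response element, which is bound by Nfe2l1 and Nfe2l2. The windows are chr20:4656982-4657281 (minus strand) for Psmb8, chr20:4668750-4669049 (plus) for Psmb9, chr19:50743243-50743542 (minus) for Psmb10, chr15:33038721-33039020 (plus) for Psme1, chr15:33052702-33053001 (minus) for Psme2 and chr15:32047330-32047629 (minus) for Psmb5.
Psmb8: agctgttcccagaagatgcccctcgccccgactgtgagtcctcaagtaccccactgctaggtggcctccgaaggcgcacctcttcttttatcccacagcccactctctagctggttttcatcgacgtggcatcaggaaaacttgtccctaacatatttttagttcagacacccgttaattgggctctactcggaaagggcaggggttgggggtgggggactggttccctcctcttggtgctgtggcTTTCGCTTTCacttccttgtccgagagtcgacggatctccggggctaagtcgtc
Psmb9: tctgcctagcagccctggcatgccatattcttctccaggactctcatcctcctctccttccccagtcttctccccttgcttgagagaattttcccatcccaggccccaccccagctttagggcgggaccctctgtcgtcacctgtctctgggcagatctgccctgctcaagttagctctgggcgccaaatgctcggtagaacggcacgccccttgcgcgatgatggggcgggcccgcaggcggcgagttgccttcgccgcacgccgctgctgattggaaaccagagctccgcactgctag
Psmb10: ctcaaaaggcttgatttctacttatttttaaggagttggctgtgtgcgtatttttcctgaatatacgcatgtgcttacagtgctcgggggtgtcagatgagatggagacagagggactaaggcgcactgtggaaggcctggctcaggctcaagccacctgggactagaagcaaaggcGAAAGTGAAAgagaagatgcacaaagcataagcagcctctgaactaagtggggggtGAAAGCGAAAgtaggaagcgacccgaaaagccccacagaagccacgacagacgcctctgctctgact
Psme1: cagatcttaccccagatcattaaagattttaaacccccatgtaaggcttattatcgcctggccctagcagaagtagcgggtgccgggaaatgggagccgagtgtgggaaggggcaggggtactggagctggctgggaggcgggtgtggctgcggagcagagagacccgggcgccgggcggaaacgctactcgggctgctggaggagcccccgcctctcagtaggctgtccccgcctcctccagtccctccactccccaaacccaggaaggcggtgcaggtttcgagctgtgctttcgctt
Psme2: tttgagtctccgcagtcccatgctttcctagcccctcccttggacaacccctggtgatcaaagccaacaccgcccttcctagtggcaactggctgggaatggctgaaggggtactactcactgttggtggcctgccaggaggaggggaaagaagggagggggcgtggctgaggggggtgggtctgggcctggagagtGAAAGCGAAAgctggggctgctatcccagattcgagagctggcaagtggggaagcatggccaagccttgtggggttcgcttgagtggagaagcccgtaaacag
Psmb5: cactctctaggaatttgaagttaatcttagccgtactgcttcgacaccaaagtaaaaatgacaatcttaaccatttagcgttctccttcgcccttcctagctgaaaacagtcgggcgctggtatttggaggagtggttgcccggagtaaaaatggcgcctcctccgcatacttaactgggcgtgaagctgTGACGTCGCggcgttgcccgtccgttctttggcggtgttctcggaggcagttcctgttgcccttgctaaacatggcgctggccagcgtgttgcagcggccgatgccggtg

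Psmb8 and Psmb9 lie close together on opposite strands of chr20, as do Psme1 and Psme2 on chr15. The interferon motif was found once in the Psmb8 window (on the other strand, from -4 to 5 relative to the start), in 2 places in Psmb10 (-73 to -64 and -17 to -8) and once in Psme2 (-53 to -44). It was not in the windows of Psmb9 or Psme1, the members with the largest rises. The Psme1 window ends in tttcgctt, which begins the other-strand form of the motif, so a match crossing that end would be missed. Of the 40 member genes with a promoter in the table, 7 (17.5%) held the interferon motif, against 3.77% of all 27457 promoters. The 7 were Psma4, Psmb3, Psmb8, Psmb10, Psmd7, Psme2 and Psmg4. The antioxidant motif was in 7 as well (17.5%, against 12.2% of all promoters), namely Psma3, Psmb2, Psmb5, Psmd1, Psmd3, Psmd9 and Psme4. Psmb5, which did not pass, holds it from -60 to -52. A match describes the letters in a window and is not a measured binding site.

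All 6 varying alpha subunits of the core, which form its outer rings and its gate, were called higher, with changes from 0.23 to 0.54 and a median of 0.40. The 2 with the strongest statistics were Psma6 and Psma5. Psma6 read 10.95, 10.83, 10.91, 10.91 and 11.00 in Sham and from 11.05 over 11.35 to 11.48 in MCAO. Psma5 read 10.26, 10.13, 10.19, 10.21 and 10.34 in Sham and from 10.40 over 10.68 to 10.86 in MCAO. Both were separated without overlap, with MCAO 2 nearest to Sham. The change was 0.39 ± 0.07 for Psma6 (adjusted p = 0.00214) and 0.42 ± 0.07 for Psma5 (adjusted p = 0.00225). Psma2 had the largest change of the class, 0.54 ± 0.10 (adjusted p = 0.0032), followed by Psma7 at 0.49 and Psma4 at 0.36. Psma1 was the weakest at 0.23 ± 0.07 (adjusted p = 0.0186), with 5 of 7 MCAO rats above all Sham rats.

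Of the 6 varying constitutive beta subunits, 5 were called higher and only Psmb5 did not pass. Psmb4, a structural subunit of the ring, read 11.05, 10.88, 10.92, 10.99 and 11.09 in Sham and from 11.18 over 11.46 to 11.58 in MCAO. Psmb2, also structural, read 9.99, 9.94, 10.02, 10.00 and 10.04 in Sham and from 10.13 over 10.40 to 10.57 in MCAO. The groups did not overlap for either gene. The change was 0.43 ± 0.07 for Psmb4 (adjusted p = 0.00173) and 0.38 ± 0.06 for Psmb2 (adjusted p = 0.00193). Psmb1 rose by 0.32 and Psmb3 by 0.22, so the median of the class was 0.27.

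The ATPases form the hexamer that unfolds and threads substrates into the core. Of the 6 genes 4 were called higher, with a class median of 0.23, while Psmc3 (0.06, adjusted p = 0.184) and Psmc5 (0.05, adjusted p = 0.211) did not pass. Psmc1 read 10.20, 10.11, 10.23, 10.18 and 10.27 in Sham and from 10.30 over 10.49 to 10.64 in MCAO. Psmc2 read 11.32, 11.25, 11.33, 11.28 and 11.35 in Sham and from 11.37 over 11.53 to 11.62 in MCAO. These 2 were the only ATPases without overlap, by gaps of at most 0.03 log2 units. The change was 0.27 ± 0.06 for Psmc1 (adjusted p = 0.00612) and 0.19 ± 0.05 for Psmc2 (adjusted p = 0.00964). Psmc4 rose by 0.30 ± 0.08 and Psmc6 by 0.28 ± 0.08. The call for Psmc6 was lost without Sham 2 (adjusted p = 0.0573) and without Sham 3 (0.0537).

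In the base beside the ATPases, only Psmd4, a ubiquitin receptor, varied. It read 9.34, 9.28, 9.36, 9.40 and 9.40 in Sham and from 9.46 over 9.68 to 9.79 in MCAO, with no overlap, and rose by 0.30 ± 0.06 (adjusted p = 0.00368). Of the 7 varying lid genes 6 were called higher, with a median of 0.20. Psmd11, a scaffold subunit of the lid, read 9.57, 9.59, 9.63, 9.62 and 9.62 in Sham and from 9.86 over 10.03 to 10.13 in MCAO. It was the most clearly separated lid gene, with a change of 0.40 ± 0.05 (adjusted p = 0.00071). Psmd14, the deubiquitinase that removes ubiquitin chains from the substrate, read 10.28, 10.22, 10.26, 10.34 and 10.30 in Sham and from 10.35 over 10.61 to 10.70 in MCAO. It rose by 0.28 ± 0.06 (adjusted p = 0.00476), with its lowest MCAO rat just above the highest Sham rat. Psmd3, Psmd6, Psmd8 and Psmd13 rose by 0.18 to 0.30. Psmd8 lost its call without Sham 2 (adjusted p = 0.0536) and without Sham 4 (0.0502). Psmd12 did not pass, at 0.17 ± 0.11 (adjusted p = 0.212), with a wide spread in MCAO (9.42 to 10.07).

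The genes that help assembly were mixed. Psmd5, Psmd9 and Psmd10 encode chaperones of base assembly, and the first 2 were called. Psmd9 read 7.83, 7.81, 8.00, 7.82 and 7.93 in Sham and from 8.04 over 8.20 to 8.27 in MCAO, without overlap, and rose by 0.28 ± 0.05 (adjusted p = 0.00249). Psmd5 read 8.83, 8.86, 8.91, 8.82 and 8.84 in Sham and from 8.81 over 9.26 to 9.34 in MCAO. It rose by 0.34 ± 0.08 (adjusted p = 0.00711) in all MCAO rats but MCAO 4, which lay below every Sham rat. Psmd10 did not pass (0.05 ± 0.05, adjusted p = 0.401). Psmg4, a chaperone of core assembly, read 8.81, 8.56, 8.85, 8.86 and 8.86 in Sham and from 8.81 over 9.28 to 9.47 in MCAO. It rose by 0.45 ± 0.11 (adjusted p = 0.00801), with only MCAO 2 inside the Sham range.

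Several probe sets of 1 gene share a target and are no replicates, but they show where a gene's reading depends on the probe. Over 55 tested probe sets of the 44 genes, 41 varied, and 34 of these were called higher and 0 lower, against 37% of all varying probe sets called higher. Psme4, which encodes the PA200 activator, gave opposite readings. Its brightest probe set read 7.96, 8.43, 8.29, 8.24 and 7.95 in Sham and from 7.95 over 8.07 to 8.27 in MCAO, a change of -0.10 ± 0.09 that did not pass (adjusted p = 0.432 in the fit over genes). Its second probe set changed by 0.45 ± 0.10 (adjusted p = 0.00678 in the fit over probe sets) and the dimmest one by 0.30 ± 0.06 (adjusted p = 0.0049). On all 3, Sham 1 and Sham 5 lay below the other Sham rats. No direction is given for Psme4. The 3 probe sets of Psmd14 changed by 0.28, 0.34 and 0.20, and the last did not pass (adjusted p = 0.0506). Psmd7, which partners Psmd14 in the lid, was near-constant on its brightest probe set. Its second one read 9.18, 9.16, 9.29, 9.34 and 9.25 in Sham and from 9.37 over 9.56 to 9.76 in MCAO, a change of 0.35 ± 0.06 without overlap (adjusted p = 0.00305). For Psmc4 the brightest probe set was called higher, while a second, near-constant one was called lower by 0.0003, a difference without a readable size. RefSeq lists pseudogenes or like-named copies for 17 of the 44 genes, Psme1, Psme2, Psma2, Psma5, Psma6 and Psma7 among them. Their transcripts could bind the same probes, so these values are uncertain to that extent.

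**Figure D3:**
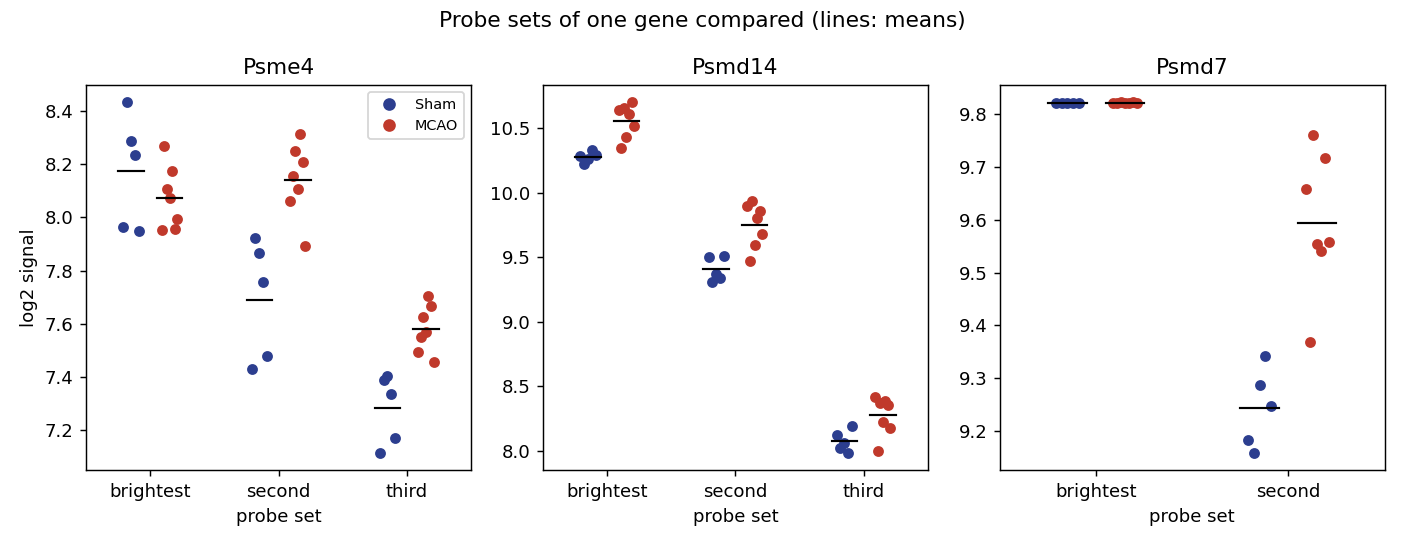
Log2 signal per rat for each varying or brightest probe set of Psme4, Psmd14 and Psmd7, ordered by mean signal, with lines at the group means; the axes differ between panels. The 3 probe sets of Psme4 show changes of -0.10, 0.45 and 0.30, and the brightest one of Psmd7 is flat while the second separates the groups.

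The size of the response differed between rats. MCAO 2 had the lowest MCAO value for 26 of the 36 varying members and lay above all Sham rats for 21. MCAO 4 was lowest for 8 and lay above all Sham rats for 27, whereas MCAO 6 was highest for 19 and lay above for 34. MCAO 1, MCAO 3, MCAO 5 and MCAO 7 did so for 32 or 33 members. The same counts over all varying genes were not computed, but MCAO 2 and MCAO 4 stood out there too. The share of all varying genes with full separation was 17.9% with all rats, 27.3% without MCAO 2 and 24.6% without MCAO 4. Without any other MCAO rat it was 17.9% to 18.3%. Over the 30 varying members outside the immunoproteasome and the activators, the mean shift from the Sham mean was 0.09 in MCAO 2 and 0.17 in MCAO 4. It was between 0.25 and 0.39 in the other MCAO rats and between -0.07 and 0.06 in Sham. The class mean of MCAO 2 was the lowest or second lowest MCAO value in every class, with 0.09 for alpha subunits and 0.07 for ATPases. Not every gene was low there, and Psmb8 read 7.42 in MCAO 2, above its MCAO median of 7.35. MCAO 4 was low for the lid (0.09) and the ATPases (0.08) but had 0.30 for alpha subunits. The immunoproteasome mean was the highest of the 5 classes plotted by rat in each of the 7 MCAO rats, from 0.46 in MCAO 2 to 0.91 in MCAO 3. The SD was larger in MCAO than in Sham for 34 of the 36 members, as it was for 89.4% of all varying genes.

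**Figure D4:**
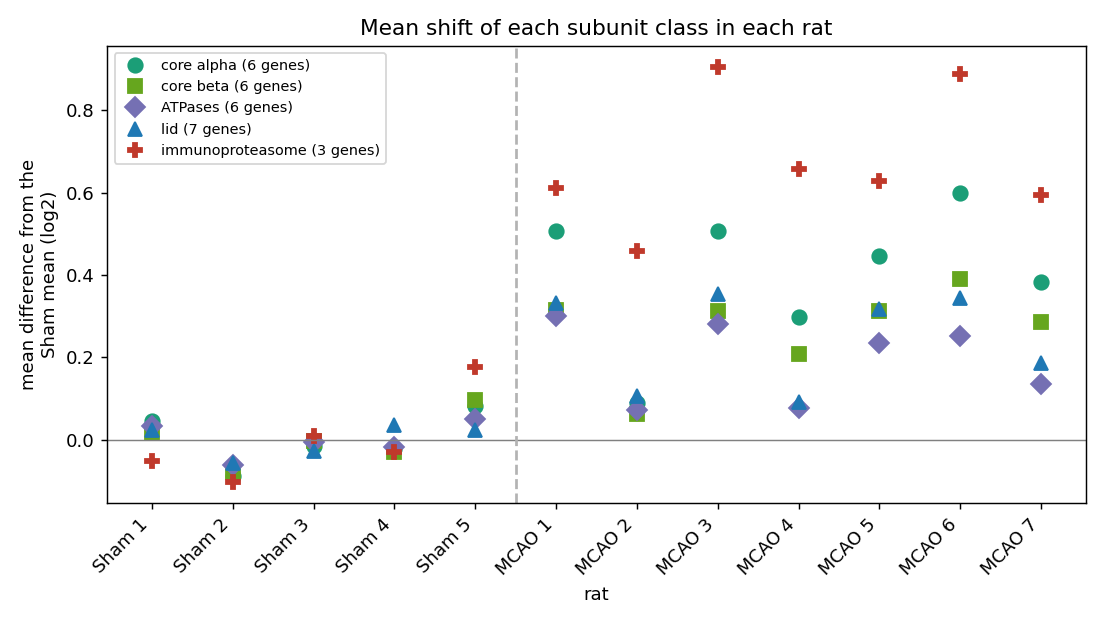
Mean log2 difference from the Sham mean over the varying genes of 5 classes, for each of the 12 rats. In MCAO 2 all classes but the immunoproteasome (0.46) lie near 0.1, and in MCAO 4 the lid and the ATPases lie at 0.09 and 0.08.

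Markers of other cells differed between the groups too. Their counts stand beside 35.2% higher and 34.2% lower of all varying genes. The lists are short, and none was tested as a set. Of 12 microglia and macrophage markers 9 varied, 7 of them higher (Tyrobp by 1.61, C1qb by 1.10, and 6 without Itgam, which lay above the filter in only 1 Sham rat) and 2 lower (Tmem119 by -0.52 and P2ry12 by -1.26). The sums and shifts of this list are over all 9, Itgam included. Their summed linear signal was 2051 to 2604 in Sham and 2632 to 4099 in MCAO. Their mean shift was lowest in MCAO 2 (0.22) and highest in MCAO 6 (0.76). MCAO 4, the rat with the second lowest proteasome shift, had the second highest (0.72). Of 11 neutrophil and monocyte markers 4 were tested and varied, with sums of 353 to 397 in Sham and 615 to 1540 in MCAO. All 4 (S100a8, S100a9, Ly6c and Plac8) lay below the filter in at least 1 Sham rat and passed it with the help of MCAO arrays, so their direction is no test. Their shift was 0.69 in MCAO 2, 0.99 in MCAO 4 and 1.97 in MCAO 6. It was 1.11 in MCAO 1, 1.40 in MCAO 3, 0.93 in MCAO 5 and 0.91 in MCAO 7. The 5 tested lymphocyte markers of 14 (Cd3e, Cd4, Cd8a, Lck and Nkg7) were near-constant. Of 11 neuronal markers 6 fell and 0 rose, with sums of 33209 to 35603 in Sham and 26343 to 33784 in MCAO. Their shift was -0.05 in MCAO 2, -0.17 in MCAO 4 and -0.42 in MCAO 6. It was -0.21 in MCAO 7, -0.30 in MCAO 1, -0.33 in MCAO 3 and -0.34 in MCAO 5. MCAO 2, MCAO 4 and MCAO 7 had the smallest shifts, in that order, and MCAO 6 the largest. The mean proteasome shift outside the immunoproteasome and activators had these rats in the same places. Of 6 varying astrocyte markers 2 rose (Gfap by 1.91, Vim by 1.69) and 3 fell (Aldh1l1, Slc1a3 and Gja1), with sums of 11549 to 12240 in Sham and 15188 to 19163 in MCAO. Their mean shift took another course, from 0.25 in MCAO 1 over 0.32 in MCAO 2 to 0.53 in MCAO 4. Of 6 varying endothelial markers 3 rose and 1 fell, with overlapping sums (2125 to 2628 in Sham, 1974 to 2396 in MCAO), and of 5 varying oligodendrocyte markers 1 fell and 0 rose. Of the markers of the labelled tissue, all 11 neuronal, 7 of 7 astrocytic and 6 of 7 oligodendrocytic genes passed the filter. The part of cell makeup in the proteasome changes was not tested. As a check of RNA integrity, the 3′ minus 5′ signal of beta-actin controls was 1.36 ± 0.07 in MCAO and 1.43 ± 0.03 in Sham (exact two-sided permutation p = 0.077).

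Genes around the proteasome were read in the same fit. Of 7 varying genes for proteasome-bound proteins and assembly factors, 4 were higher, 1 was lower and 2 did not pass, beside 35.2% higher and 34.2% lower of all varying genes. Zfand2a, a stress-induced proteasome-binding protein, ran from 7.72 to 7.86 in Sham and from 8.08 to 8.80 in MCAO, and rose by 0.70 ± 0.12 (adjusted p = 0.00221). Ublcp1, a phosphatase that acts on the proteasome, ran from 9.55 to 9.65 in Sham and from 9.28 to 9.50 in MCAO, and fell by 0.24 on the log2 scale (adjusted p = 0.00157). For both the groups did not overlap. Pomp, the maturation factor that helps new core particles form, and Sem1, a small lid subunit with its own symbol, each rose by 0.33. Leaving out any of MCAO 3, MCAO 5, MCAO 6, Sham 2 or Sham 3 reduced the higher count from 4 to 2.

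Of 8 varying genes of ubiquitin shuttles and of the Vcp extraction machinery, 4 were higher and 2 lower, beside 35.2% and 34.2% of all varying genes. So few genes give no reading of the list. Ubxn4, a Vcp adaptor of the endoplasmic reticulum, ran from 9.72 to 9.79 in Sham and from 9.87 to 10.21 in MCAO (change 0.34 ± 0.05, adjusted p = 0.0016). Ubqln2, a shuttle that carries ubiquitinated proteins to the proteasome, ran from 11.55 to 11.71 in Sham and from 11.11 to 11.48 in MCAO (change -0.36 ± 0.06, adjusted p = 0.0024). Rad23b, another shuttle, rose by 0.22 and Vcp by 0.11. The other gene called lower, Ddi2 (-0.12, adjusted p = 0.0455), lost its call in 10 of the 12 fits that left out 1 rat and kept it only without MCAO 2 or Sham 5. The E1 enzymes Uba1 and Uba6 were near-constant, and the polyubiquitin genes had no tested probe set.

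Among the regulators of proteasome genes, Maff lay below the filter of 6.61 in every Sham rat and is left out of the counts. Of the other 5 varying genes 2 were higher and 3 lower, where 35.2% of all varying genes were higher and 34.2% lower, so a split is no feature of the list. Nfe2l2 (Nrf2), an activator of antioxidant genes, ran from 8.38 to 8.65 in Sham and from 8.73 to 9.10 in MCAO and rose by 0.46 ± 0.07 (adjusted p = 0.00148). Maff, a small Maf partner, ran from 5.96 to 6.29 in Sham and from 6.53 to 8.52 in MCAO, given as values without a test because it passed the filter through MCAO arrays alone. Mafk rose by 0.57. Nfe2l1 (Nrf1), the factor known for raising proteasome genes when proteasome activity falls short, was lower in MCAO (change -0.19 ± 0.04, adjusted p = 0.00332). Keap1, the inhibitor of Nrf2, changed by -0.27, and Ngly1, which processes Nrf1, by -0.11. The call for Ngly1 was lost in 10 of the 12 fits that left out 1 rat and kept only without MCAO 3 or MCAO 4. These are transcript levels, and both factors are known to be controlled largely at the protein level.

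The genes of MHC class I loading and of interferon signalling were called higher in all varying members above the filter in Sham, beside 35.2% of all varying genes. In class I loading these were 6 of 6, with a median change of 0.34. B2m, the light chain of class I molecules, ran from 11.45 to 11.76 in Sham and from 11.92 to 12.39 in MCAO (change 0.61 ± 0.08, adjusted p = 0.000989). Tapbp, which holds the peptide transporter at the loading complex, ran from 6.97 to 7.17 in Sham and from 7.30 to 7.62 in MCAO (change 0.41 ± 0.06, adjusted p = 0.00105). Tap1, a subunit of that transporter, ran from 6.17 to 6.36 in Sham, below the filter, and from 6.62 to 7.36 in MCAO, and is left out of the count because it was tested through MCAO arrays alone. With Tap1 counted, the class I genes called higher fell from 7 to 5 without Sham 2, and to 6 without Sham 1 or Sham 3. Among interferon receptors, kinases and factors 7 of 7 varying genes were called, with a median of 0.67. Stat2, Irf7 and Irf2 of this list were tested but near-constant, as was Canx among the class I genes. Irf8, a factor of myeloid cells, ran from 6.64 to 6.88 in Sham and from 7.19 to 7.67 in MCAO (change 0.67 ± 0.09, adjusted p = 0.000937). Irf9, the DNA-binding part of the interferon-stimulated complex, ran from 7.27 to 7.40 in Sham and from 7.81 to 8.37 in MCAO (change 0.74 ± 0.09, adjusted p = 0.000941). No group overlapped for these 4 genes. The mean shifts of these lists, with Tap1 kept in the first, were smallest in MCAO 4. They were 0.24 there for class I loading and 0.28 for interferon genes, against 0.34 and 0.60 in MCAO 2.

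**Figure D5:**
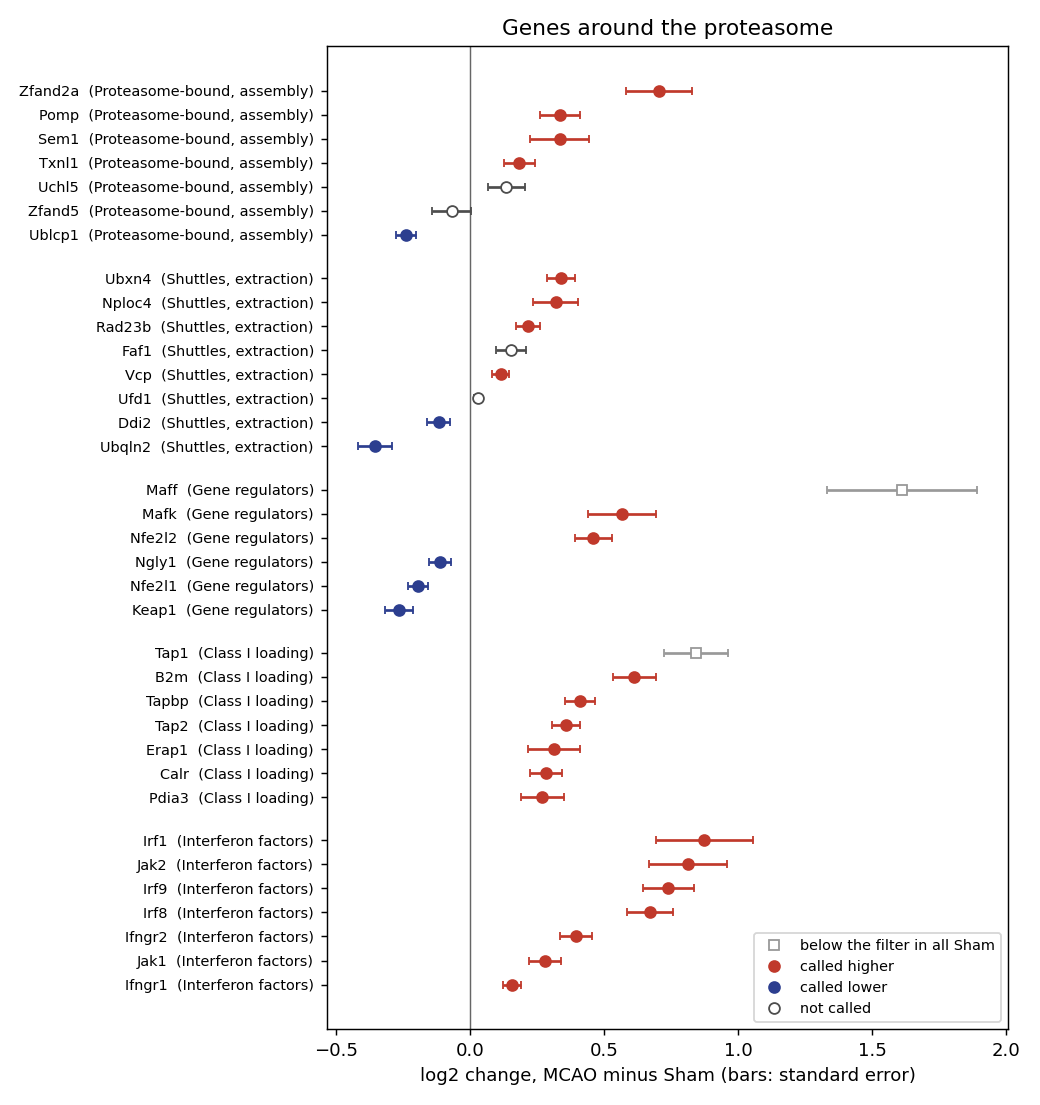
Log2 change (MCAO minus Sham) with its standard error for varying genes around the proteasome, by list, with red for called higher, blue for called lower open points for those that did not pass, and grey squares for Maff and Tap1, which lay below the filter in all Sham rats. The class I and interferon lists lie above 0, from 0.16 (Ifngr1) to 0.87 (Irf1), and the regulators lie on both sides, from -0.27 (Keap1) to 0.57 (Mafk) beside Maff.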

How the data were processed

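Total RNA was extracted with TRIzol, cleaned on RNeasy columns, and biotin-labelled cRNA was made from 100 ng, per the labels' protocols. The deposited table, made by the authors, holds values taken as log2 from their range. Which software, background correction and normalization came before it is not given in the sources used here. No column was left unused (0). Values were analysed as deposited.

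Tests covered probe sets that the platform annotation gives 1 gene (20826) and whose signal passed 6.61, the 25th percentile of all values, in 5 or more arrays. Where a gene had several, its brightest was taken, which gave 12153 genes. MCAO was tested against Sham in limma 3.58.1 under R 4.3.3 (lmFit, then eBayes with an intensity trend, two-sided). P-values were adjusted by Benjamini-Hochberg over all genes at a threshold of 0.05, and errors are standard errors unless marked SD. A second fit took each probe set as a feature. Pairs were compared by exact permutation, and gene lists are described by counts and medians with no test. The fits were checked on simulated data.

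Members and lists were chosen with earlier results of these data known. Values per rat are given for the 3 immunoproteasome genes and their partners, Psme1, Psme2 and the 2 members of each other class with the strongest statistic. Of each related list the 2 strongest genes are named. Other members are given by their change. The control probe sets of MCAO 6 stood in another row order than on the other arrays (0 of 40 near-constant controls matched within 0.05 before realignment, 40 after) and were realigned for the RNA check. Each array is a separate rat. Alternatives changed the scaling, filter, probe set choice, variance model, replicate block and each array in turn.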

Additional observations from a re-analysis of the deposited data

Results flagged for a closer look

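Among the 36 varying members, each group's highest and lowest rat was compared with the others by Dixon's criterion, in 72 groups in all. Chance flags about 1 in 20 groups, and 5 were flagged, all for a low rat. Psma7 in MCAO 2 read 10.47, against 10.85 to 11.10 in the other MCAO rats. Psmb1 in MCAO 2 read 10.73, against 11.12 to 11.24. Psmd10 in MCAO 2 read 9.001, against 9.19 to 9.27. Psmd5 in MCAO 4 read 8.81, against 9.19 to 9.34. Psmg4 in Sham 2 read 8.56, against 8.81 to 8.86 in the other Sham rats.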

How the results depend on the processing

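The count of proteasome genes called higher (30) was 30 with no filter, with array medians or 75th percentiles made equal, under quantile normalization, with no _x_at or _s_at probe sets, no trend and robust eBayes. It was 29 with the 50th percentile filter, 31 without near-constant probe sets, 32 with the mean or the most variable probe set, 34 with array weights, and 28 (without Sham 2) to 32 (without MCAO 2) when leaving out 1 array. The count called lower was 0 in all of these. The 50th percentile filter removed Psmb8 from the test. Under that filter 2 immunoproteasome genes were called, and Psmb8 minus Psmb5 was not computed. Psme4 reversed, to 0.45 with the most variable probe set and 0.22 with the mean of probe sets. With array weights Psmb5, Psmc3, Psmd10 and Psmd12 were called higher too, and without MCAO 2 Psmb5 and Psmd10.

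Whether the replicate numbers in the titles pair the rats was not settled. The deviations of same-numbered rats correlated at 0.43, 0.65, -0.41, 0.01 and 0.32, and those of different-numbered rats were not computed for comparison. With the replicate block 23 genes were called higher, 3 of them lid genes (6 without it) and 1 a Psmd chaperone (2 without it). Psmb8 minus Psmb5 was then 0.60 and Psmb10 minus Psmb7 0.32, each with an exact p of 0.0625, the smallest that 5 pairs allow. When leaving out 1 array the pairs ranged from 0.45 to 0.58 and from 0.32 to 0.40. Under the block 4 class I genes were called higher (7 without it, Tap1 counted), 2 proteasome-bound genes (4) and 2 shuttle genes (4). With the mean or the most variable probe set 7 shuttle genes were called higher and 2 lower, of 9 that varied. Without near-constant probe sets 3 proteasome-bound genes were called lower (1 with them).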
